A study of Mus musculus with 4 samples.

Results

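The 35 genes described here carry amino acids into protein synthesis: 6 genes of the ATF4 axis, 10 amino acid transporters and 19 cytosolic aminoacyl-tRNA synthetases. They were chosen by gene name, and all 35 were found among the 54752 genes listed in the count files. RNA was sequenced from splenic naïve CD4+ T cells of mice after 3 days of culture under conditions that favour T follicular helper (Tfh) cells, with plate-bound anti-CD3, anti-CD28, IL-6 and blocking antibodies to 4 cytokines, IL-4, IL-2, TGF-β and IFN-γ. Mek1/2-tKO mice were Cd4-Cre+ and homozygous for floxed alleles of Map2k1 (fl/fl) and of Map2k2 (fl/fl) on a C57BL/6 background, so that Cre, driven by Cd4 regulatory sequence, deletes the genes of the kinases MEK1 and MEK2 in T cells from the thymus onwards. WT mice were the controls, and whether they carried Cre or floxed alleles, like the age and sex of the donors of either genotype, is not given in the sources used here. Both genotypes received the same culture, viable cells were sorted before RNA extraction, and each genotype had 2 libraries. The sources do not say whether the libraries of a genotype came from separate animals, so p-values measure only the spread between these samples.

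When amino acids run short or unfolded protein accumulates, kinases phosphorylate the initiation factor eIF2, general translation falls and the mRNA of the transcription factor ATF4 is translated more. ATF4 then binds, with partners of the C/EBP family, to C/EBP-ATF response elements near genes for amino acid synthesis, amino acid uptake and the charging of tRNA. Because ATF4 is controlled largely at translation, its mRNA is not a measure of the protein. T cells that are activated through their receptor raise amino acid transporters, and the imported amino acids feed both tRNA synthetases and the growth kinase complex mTORC1.

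The libraries held 18858860 and 18807774 counts in WT and 16330802 and 18931090 in Mek1/2-tKO. Levels are given as counts per 1000000 library counts after TMM scaling (CPM), in the order replicate 1 and replicate 2, and a gene was called when edgeR's quasi-likelihood test gave a Benjamini-Hochberg adjusted p under 0.05 with a fold change of at least 1.5. All 35 genes were among the 14330 with enough counts to be tested. With 2 libraries per genotype the smallest two-sided p of an exact permutation test would be 0.333, and the adjusted p values therefore depend on the spread that edgeR estimates over all genes together. Of the targeted genes, Map2k1, which encodes MEK1, had 182 and 187 CPM in WT and 98.0 and 105 CPM in Mek1/2-tKO, a log2 fold change of -0.86 (SE 0.08, adjusted p = 1.29e-06). Map2k2, which encodes MEK2, had 155 and 165 CPM in WT and 172 and 182 CPM in Mek1/2-tKO and was not called (log2 fold change 0.15, SE 0.08, adjusted p = 0.126). Counts over a whole gene cannot show the loss of floxed exons alone.

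The sorted cells were labelled as CD4+ T cells, and their marker genes were read before the 35 genes. Cd4 itself was at 297 and 290 CPM in WT but at 18.8 and 25.1 CPM in Mek1/2-tKO, where it was called lower (log2 fold change -3.73, SE 0.12, adjusted p = 2.43e-11). Of 10 αβ T-cell markers 4 were called lower, and the only higher one was Thy1, the most abundant of them. Among all tested genes 16.4% were called lower and 19.3% higher. The summed level of the 10 αβ T-cell markers was 2737 and 2756 CPM in WT and 2737 and 2550 CPM in Mek1/2-tKO.

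Markers of other blood cells stood higher in both Mek1/2-tKO libraries, where 19.3% of all tested genes were called higher. All 12 B-cell markers were called higher, and their sum was 1300 and 1274 CPM in WT against 6977 and 6916 CPM in Mek1/2-tKO, with Ighm, the heavy chain of IgM, the most abundant. All 10 NK-cell markers were called higher, with sums of 151 and 151 CPM against 963 and 879 CPM and Nkg7, a granule protein of cytotoxic cells, as the most abundant. All 6 γδ T-cell markers were called higher, with sums of 21.9 and 22.2 CPM against 289 and 281 CPM and the kinase gene Blk as the most abundant. In every gene of these 3 lists both Mek1/2-tKO libraries lay above both WT libraries, an order that 39.5% of all tested genes had. Both CD8 genes, Cd8a and Cd8b1, were called higher too (67.4 and 59.3 CPM against 238 and 214 CPM, Cd8a the more abundant in Mek1/2-tKO). Plasma-cell markers rose in 2 of the 4 tested, Jchain and Mzb1, the latter the most abundant, with a sum of 77.3 and 69.1 CPM against 421 and 363 CPM, and Tnfrsf17 had no count in WT. Myeloid markers rose in all 8 tested of 10, at low sums of 5.08 and 5.602 CPM against 32.8 and 27.2 CPM. Lyz2 was their most abundant gene, and Adgre1 and S100a8 had no count in WT, which allows up to 3 counts a library, or more if both reads of a pair were counted. These markers moved with genotype in both Mek1/2-tKO libraries, so the 35 genes could not be compared without them, and their part in the results was not tested. In bulk RNA, fewer cells of a type and less RNA per cell cannot be told apart.

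**Figure D1:**
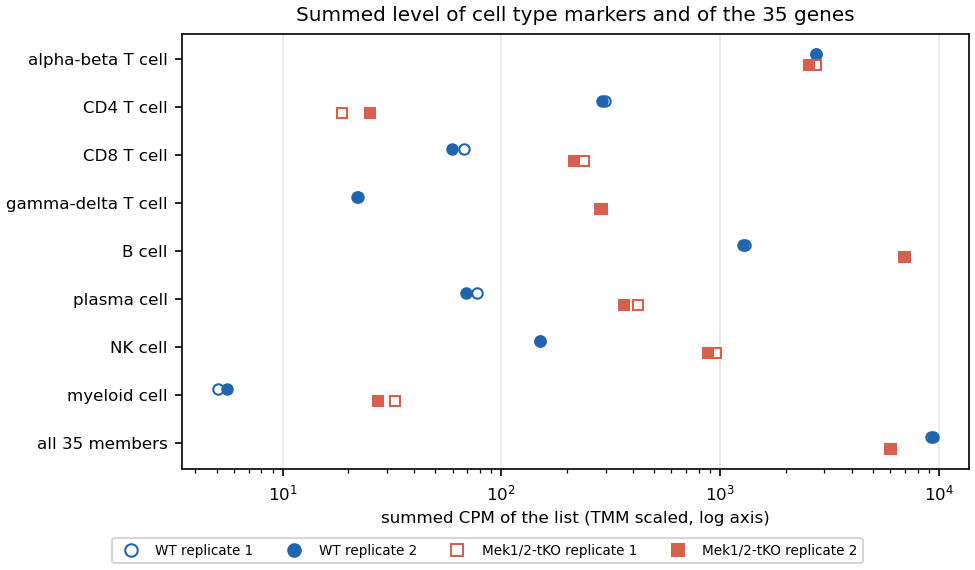
Summed CPM (log axis) of each list of cell type markers and of the 35 genes, with circles for the 2 WT libraries and squares for the 2 Mek1/2-tKO libraries. The sum of the 35 genes was 9193 and 9412 CPM in WT and 5960 and 6053 CPM in Mek1/2-tKO, while the B-cell markers stood at 1300 and 1274 CPM in WT and at 6977 and 6916 CPM in Mek1/2-tKO.

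Most of the 35 genes were lower in Mek1/2-tKO cells. Of the 35, 24 were called lower, 1 was called higher and 10 were not called, against 16.4% called lower and 19.3% called higher (35.8% in either direction) among all 14330 genes tested. With the trends of the fold changes on exon length and GC content taken out, a setting chosen after seeing the data that kept the adjusted p-values as they were, 15 of the 24 stayed past both thresholds. The median log2 fold change of the 35 was -0.77, where that of all tested genes was 0.02. In 33 of the 35 both Mek1/2-tKO libraries lay below both WT libraries, in the other 2, Ddit3 and Wars, both lay above, and in none did the genotypes overlap. Such a separation downwards was seen in 38.8% of all tested genes, and upwards in 39.5%.

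**Figure D2:**
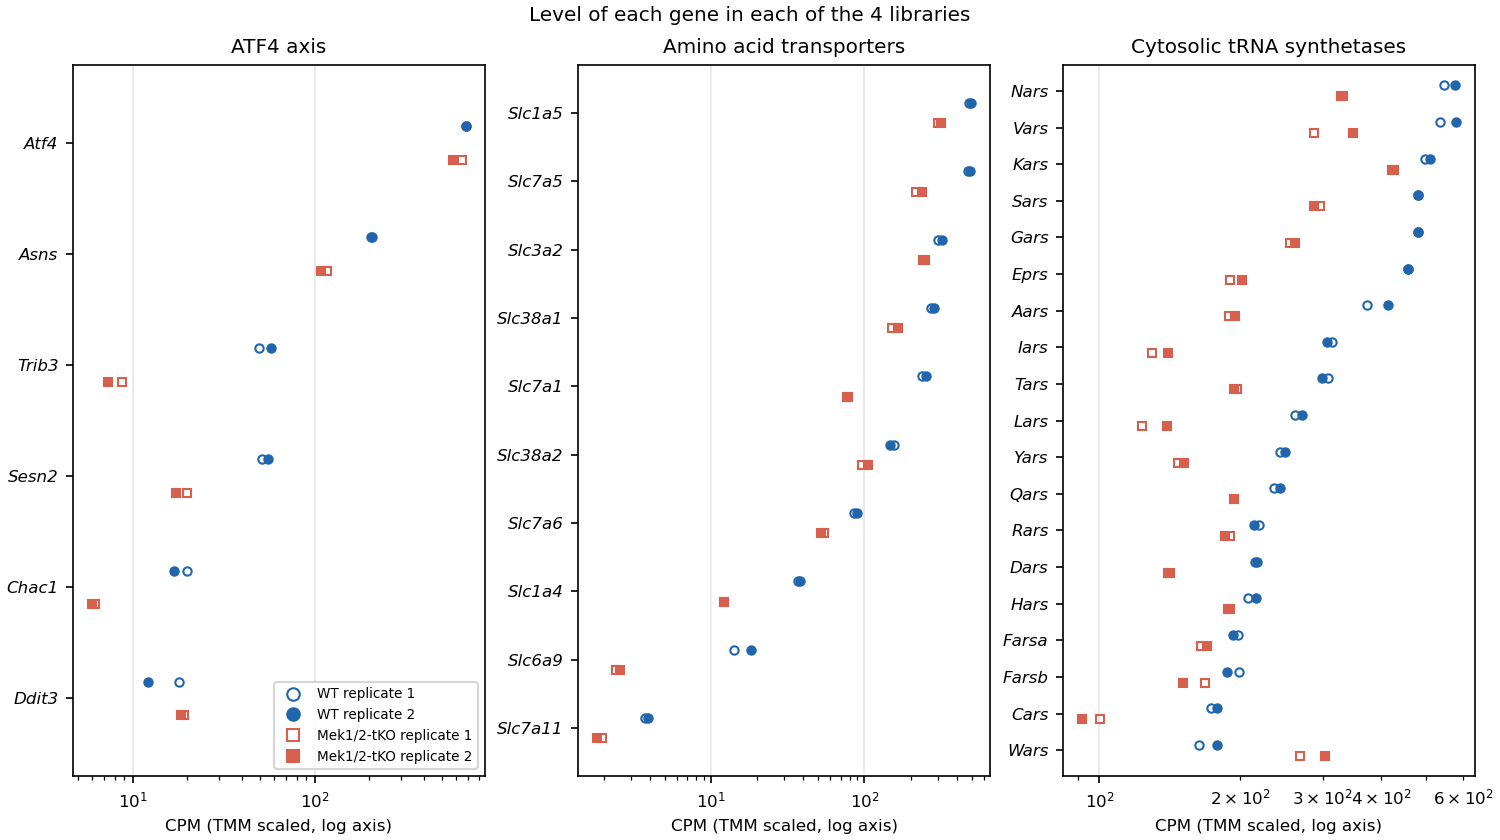
CPM (log axis, TMM scaled) of each of the 35 genes in each library, grouped into ATF4 axis, transporters and synthetases and ordered by the level in WT, with circles for WT and squares for Mek1/2-tKO. The squares lie to the left of the circles in 33 rows, and to the right in the rows of Ddit3 and Wars.

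In the ATF4 axis, the mRNA of the factor itself was not called while 4 of its 5 listed target genes fell. Atf4 (ENSMUSG00000042406.8, chr15:80255184-80257541) had 681 and 678 CPM in WT and 648 and 575 CPM in Mek1/2-tKO. The difference of -0.15 on the log2 scale (SE 0.08) was not significant (adjusted p = 0.117), although the genotypes did not overlap. Trib3 (ENSMUSG00000032715.9, chr2:152337422-152344032), a pseudokinase that ATF4 induces and that in turn restrains ATF4, had 49.6 and 57.6 CPM in WT and 8.79 and 7.30 CPM in Mek1/2-tKO. Both Mek1/2-tKO libraries were far below both WT libraries, and the log2 fold change was -2.74 (SE 0.15, adjusted p = 4.62e-09).

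Chac1 (chr2:119351229-119354381), which degrades glutathione, had 19.8 and 16.8 CPM in WT and 6.20 and 5.96 CPM in Mek1/2-tKO, a fall of -1.59 on the log2 scale (SE 0.19, adjusted p = 8.42e-06). Sesn2 (chr4:132492032-132510501), a leucine sensor that holds back mTORC1, had 51.6 and 55.6 CPM in WT and 19.96 and 17.3 CPM in Mek1/2-tKO, a log2 fold change of -1.53 (SE 0.12, adjusted p = 2.63e-07). Neither overlapped between genotypes, and their Mek1/2-tKO means were 33.2% of WT for Chac1 and 34.8% for Sesn2. Asns (ENSMUSG00000029752.12, chr6:7675169-7693254), asparagine synthetase, had 206 and 205 CPM in WT and 117 and 109 CPM in Mek1/2-tKO, a log2 fold change of -0.86 (SE 0.08, adjusted p = 9.89e-07). Its fall was smaller than that of Trib3, Chac1 and Sesn2, and its libraries lay close together within each genotype.

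Ddit3 (chr10:127290774-127296288), which encodes the stress factor CHOP, was the exception in the axis. It had 18.1 and 12.2 CPM in WT and 19.1 and 18.5 CPM in Mek1/2-tKO. The WT libraries differed from each other by more than WT replicate 1 differed from Mek1/2-tKO, and the log2 fold change of 0.31 (SE 0.18) was not significant (adjusted p = 0.172). It was 0.62, and called, without WT replicate 1 and 0.05 without WT replicate 2. The symbol Ddit3 matched 2 rows, of which ENSMUSG00000025408.15 was used. Of its exon bases 6.13% were shared on the same strand, and its overlap partners include a row of the same symbol. Its counts are therefore uncertain. Levels per exon length, scaled to a sum of 1000000 in each library (TPM), placed Atf4 first in WT at 558 ± 5.41 TPM (SD, n = 2), followed by Asns at 146 ± 1.36 TPM and Trib3 at 48.9 ± 4.81 TPM. The exon length takes in all annotated exon bases of a gene and can exceed the transcript in use, which lowers TPM. Chac1 at 21.7 ± 2.67 TPM and Ddit3 at 17.1 ± 4.82 TPM came last in WT and lay within their spread of each other. In Mek1/2-tKO, Ddit3 stood at place 3 of the 6 genes, and Trib3 and Chac1, the last, lay within their spread of each other.

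The promoters of the 35 genes were searched for TGATGNAA (N is any base; reverse complement TTNCATCA), the core of the C/EBP-ATF response element, because it is the sequence through which ATF4 is known to act. RefSeq windows of GRCm38.p6 from 250 bases before to 50 after the start of the gene were present for 25 of the 35, and 10 of these held the motif on either strand. That is 40% of the 25, against 3.97% of all 32851 windows and 2.85% of the 9584 tested symbols with a window. Of the 17 genes with a window that were called lower, 10 held the motif, and of the 8 that were not called, 0 did. Over all tested symbols with a window, the motif was in 3.49% of 1746 called lower, 2.45% of 6160 not called and 3.63% of 1679 called higher. These classes overlap slightly, since their sizes add up to more than 9584. The 35 genes were chosen by name for the ATF4 response, amino acid transport and tRNA synthetases, with earlier results of these data known. The split among them was therefore not tested. The median log2 fold change was -1.03 with the motif and -0.58 without it. A match is a description of the letters and not of binding, and a window without a match says only that these letters are not in it. Within the ATF4 axis the motif was in the windows of 3 of 6 genes, shown here on the strand of the gene with the match in capitals. Distances are counted from the RefSeq start, which can differ from the outer end of the gene in the annotation behind the count files, and to the first base of the match as printed. In Trib3 (RefSeq start 152344060) the match begins at base 15 of the transcribed strand (chr2:152344028-152344057, minus strand). In Chac1 (RefSeq start 119351242) it begins 193 bases before the start (chr2:119351038-119351067, plus strand), and in Asns (RefSeq start 7693209) 23 bases before (chr6:7693214-7693243, minus strand).
Trib3: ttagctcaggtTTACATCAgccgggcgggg
Chac1: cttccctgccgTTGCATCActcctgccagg
Asns: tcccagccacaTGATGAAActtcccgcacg

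Amino acid transporters fell in 8 of 10, with a median log2 fold change of -0.91, and the other 2 were lower by less than 1.5-fold, where 16.4% of all tested genes were called lower. With the trends on exon length and GC content taken out, 5 of the 8 kept the call. Slc7a5 and Slc3a2 form the exchanger LAT1-CD98, which brings leucine and other large neutral amino acids into activated T cells in exchange for glutamine. Slc7a5 (ENSMUSG00000040010.10, chr8:121881150-121907694), the transporting chain, had 474 and 487 CPM in WT and 216 and 236 CPM in Mek1/2-tKO, a log2 fold change of -1.09 (SE 0.08, adjusted p = 6.41e-08). Slc3a2 (chr19:8706882-8723369), the chaperone chain that it shares with other transporters, had 300 and 318 CPM in WT and 242 and 249 CPM in Mek1/2-tKO. Its log2 fold change of -0.33 (SE 0.07) passed the adjusted p (0.00185, and 0.0937 without WT replicate 2) but not the fold threshold, and no test of the difference between the 2 chains was made.

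The arginine and lysine carrier Slc7a1 (ENSMUSG00000041313.14, chr5:148327410-148399904) had 236 and 251 CPM in WT and 76.5 and 77.9 CPM in Mek1/2-tKO. The Mek1/2-tKO libraries lay close together at a mean of 31.8% of WT, and the log2 fold change was -1.65 (SE 0.08, adjusted p = 2.02e-09). Slc1a4, a carrier of serine and alanine, had 37.0 and 37.9 CPM in WT and 12.1 and 12.3 CPM in Mek1/2-tKO (log2 fold change -1.62, SE 0.13, adjusted p = 3.15e-07). Slc1a5, the glutamine carrier ASCT2, had 483 and 497 CPM in WT and 301 and 318 CPM in Mek1/2-tKO (log2 fold change -0.66, SE 0.07, adjusted p = 5.14e-06). Of these carriers, Slc1a5 stayed among the most abundant in both genotypes although it was called lower. With the length and GC trends taken out, Slc7a1 (-1.22) and Slc1a4 (-1.55) stayed past the fold threshold and Slc1a5 (-0.53) did not.

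The glycine carrier Slc6a9 (chr4:117834506-117875198) fell by about as much as Trib3, within the errors of both, from 14.2 and 18.4 CPM in WT to 2.39 and 2.56 CPM in Mek1/2-tKO (log2 fold change -2.71, SE 0.23, adjusted p = 4.93e-07). Of its exon bases 30.3% lie opposite exons on the other strand, and the strand setting of the counting is not given in the sources used here, so its counts are uncertain. Slc7a11, the cystine importer, was the least abundant of the 35, at 3.70 and 3.89 CPM in WT and 1.94 and 1.81 CPM in Mek1/2-tKO, which are 72, 75, 30 and 34 counts. Its call (log2 fold change -1.02, SE 0.35, adjusted p = 0.025) was lost with DESeq2 and without WT replicate 1, WT replicate 2 or Mek1/2-tKO replicate 2, where the adjusted p reached 0.112.

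Carriers of small neutral amino acids and of cationic amino acids in exchange made up the rest. Slc38a1, a sodium-coupled glutamine carrier, had 272 and 284 CPM in WT and 151 and 166 CPM in Mek1/2-tKO (log2 fold change -0.81, SE 0.08, adjusted p = 1.49e-06), which was -0.28 and not called with the length and GC trends taken out. Its relative Slc38a2, which is known to be induced when amino acids are scarce, had 155 and 147 CPM in WT and 96.6 and 105 CPM in Mek1/2-tKO. At a log2 fold change of -0.58 (SE 0.09, adjusted p = 6.45e-05) it lay just short of the 1.5-fold threshold and was not called, while it was called without WT replicate 2, without Mek1/2-tKO replicate 2, with library size alone and with no filter. Slc7a6, which like Slc7a5 pairs with Slc3a2, had 85.7 and 89.9 CPM in WT and 54.9 and 52.5 CPM in Mek1/2-tKO (log2 fold change -0.71, SE 0.10, adjusted p = 2.9e-05). With the length and GC trends taken out, the log2 fold change of Slc7a6 was -0.54 and not called. In all 10 transporters both Mek1/2-tKO libraries lay below both WT libraries, as they did in 38.8% of all tested genes.

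Per exon length, Slc7a5 was the most abundant transporter in WT at 251 ± 3.18 TPM (SD, n = 2), above Slc1a5 at 227 ± 3.25 TPM and Slc3a2 at 169 ± 5.86 TPM. In Mek1/2-tKO the order of these 3 was Slc1a5 at 108 ± 12.6 TPM, Slc3a2 at 101 ± 10.2 TPM and Slc7a5 at 88.6 ± 12.6 TPM, where neighbours in the order lay within their spread. TPM were compared between genes only, since the median log2 TPM ratio of all tested genes between the genotypes was -0.40. The motif was in the windows of 2 of the 7 transporters matched, shown because both genes were called lower. Slc7a11 holds a match on each strand, 66 and 47 bases before its RefSeq start (chr3:50443652-50443681, minus strand), and Slc1a4 holds one 4 bases before (chr11:20332699-20332728, minus strand).
Slc7a11: gcTGATGCAAacctggagaatTTGCATCAt
Slc1a4: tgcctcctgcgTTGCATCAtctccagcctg

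**Figure D3:**
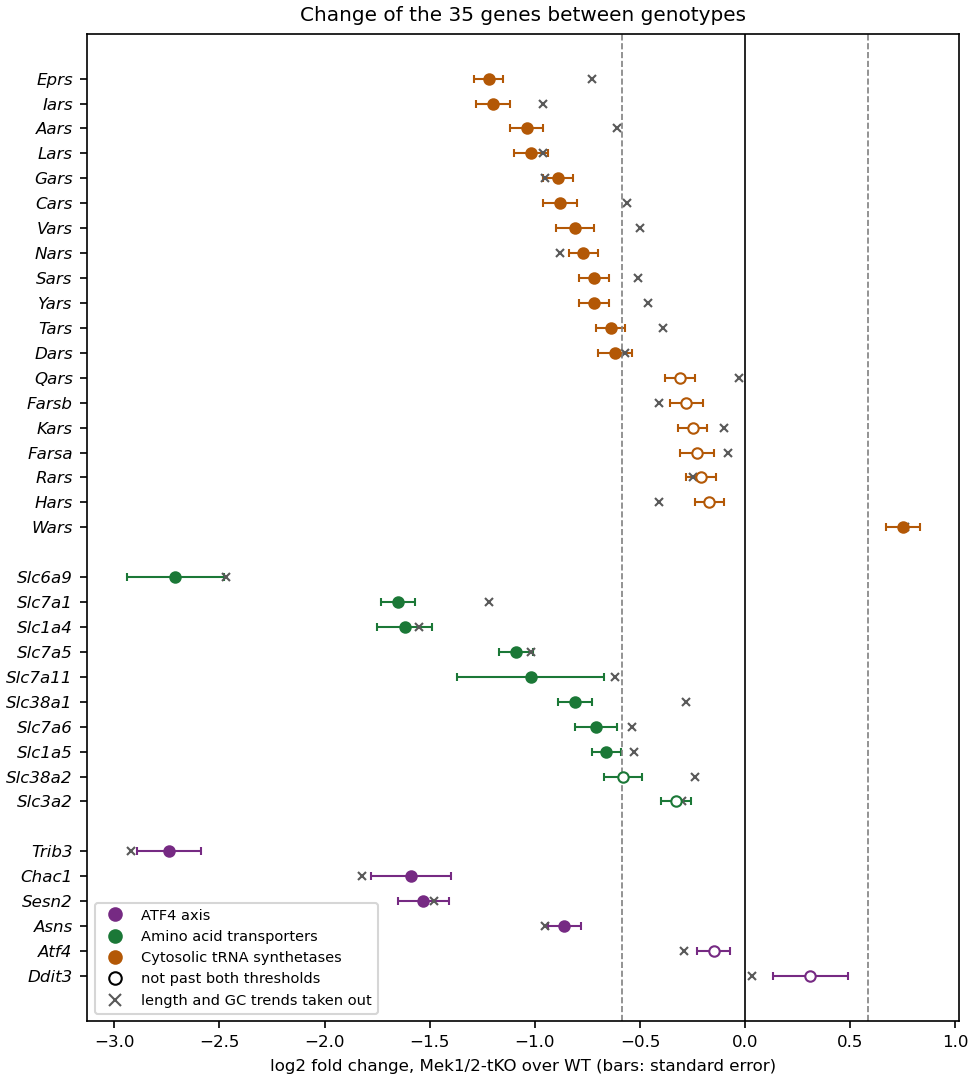
Log2 fold change of Mek1/2-tKO over WT for the 35 genes by group, with bars for the standard error, filled circles for called genes, open circles for genes not called, dashed lines at a fold of 1.5 and crosses for the value after the trends on exon length and GC content were taken out. Trib3 at -2.74 and Slc6a9 at -2.71 lie farthest to the left, and Wars at 0.75 is the only filled circle to the right of 0.

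Cytosolic tRNA synthetases attach each amino acid to its own tRNA. Of the 19, 12 fell, 1 rose and 6 were not called, against 16.4% lower and 19.3% higher among all tested genes. Their median log2 fold change was -0.72, and their summed level was 6108 and 6253 CPM in WT and 3988 and 4100 CPM in Mek1/2-tKO. With the trends on exon length and GC content taken out, 6 of the 12 stayed past both thresholds. The falls ranged from -1.22 to -0.62 on the log2 scale, a narrower range than among the transporters. In every synthetase but Wars both Mek1/2-tKO libraries lay below both WT libraries, an order that 38.8% of all tested genes had.

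Eprs (ENSMUSG00000026615.14, chr1:185363044-185428360), the fused synthetase for glutamate and proline, had 457 and 458 CPM in WT and 190 and 202 CPM in Mek1/2-tKO (log2 fold change -1.22, SE 0.07, adjusted p = 1.46e-08). Iars, for isoleucine, had 314 and 307 CPM in WT and 130 and 140 CPM in Mek1/2-tKO (log2 fold change -1.20, SE 0.08, adjusted p = 2.73e-08). Aars, for alanine, had 374 and 414 CPM in WT and 189 and 195 CPM in Mek1/2-tKO (log2 fold change -1.04, SE 0.08, adjusted p = 1.31e-07). The falls of Eprs and Iars differed by less than their errors, and these 3 genes were left at 42.9%, 43.6% and 48.7% of their WT means. With the length and GC trends taken out, the log2 fold change was -0.73 for Eprs, -0.96 for Iars and -0.61 for Aars, so that Eprs and Aars had smaller falls than Lars (-0.96), Gars (-0.95) and Nars (-0.88). Of the exon bases of Aars 14.3% are shared with Exosc6 on the same strand, so its counts are uncertain.

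Lars, for leucine, had 262 and 271 CPM in WT and 124 and 140 CPM in Mek1/2-tKO (log2 fold change -1.02, SE 0.08). Gars, for glycine, had 480 and 481 CPM in WT and 256 and 262 CPM in Mek1/2-tKO (-0.89, SE 0.07). Cars, for cysteine, had 173 and 179 CPM in WT and 100.4 and 91.7 CPM in Mek1/2-tKO (-0.88, SE 0.08). In all 3 the libraries of a genotype lay within a narrow band and the genotypes far apart, and the adjusted p values were 2.62e-07, 2.52e-07 and 1.46e-06. With the length and GC trends taken out, Lars (-0.96) and Gars (-0.95) stayed past the fold threshold and Cars (-0.56) did not.

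Vars, for valine, had 535 and 579 CPM in WT and 288 and 349 CPM in Mek1/2-tKO (log2 fold change -0.81, SE 0.09), with the widest spread between Mek1/2-tKO replicates of any synthetase that fell. Nars, for asparagine, had 546 and 577 CPM in WT and 331 and 329 CPM in Mek1/2-tKO (-0.77, SE 0.07). Sars, for serine, had 481 and 480 CPM in WT and 296 and 287 CPM in Mek1/2-tKO (-0.72, SE 0.07). Nars was the most abundant synthetase per exon length in both genotypes, at 413 ± 13.2 TPM in WT, and Eprs the least, at 48.9 ± 0.263 TPM (SD, n = 2). This order rests on the annotated exon lengths, 2632 bases for Nars and 18102 for Eprs. By CPM, Eprs was at 457 and 458 in WT, so its last place is not a low count. Yars, for tyrosine, had 243 and 250 CPM in WT and 147 and 152 CPM in Mek1/2-tKO (-0.72, SE 0.07). Tars, for threonine, had 308 and 299 CPM in WT and 197 and 194 CPM in Mek1/2-tKO (-0.64, SE 0.07). Dars, for aspartate, had 215 and 217 CPM in WT and 141 and 140 CPM in Mek1/2-tKO (-0.62, SE 0.08). Tars and Dars lay just past the 1.5-fold threshold, and the adjusted p values of these 6 genes lay between 1.32e-06 and 1.26e-05. With the length and GC trends taken out, Nars (-0.88) stayed past the fold threshold. Vars (-0.50), Sars (-0.51), Yars (-0.46), Tars (-0.39) and Dars (-0.57) did not.

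The 6 synthetases that were not called fell short of the fold threshold. Their log2 fold changes were -0.31 for Qars (glutamine), -0.28 for Farsb and -0.23 for Farsa (the subunits for phenylalanine), -0.25 for Kars (lysine), -0.21 for Rars (arginine) and -0.17 for Hars (histidine). Kars, the most abundant of them by CPM, had 498 and 510 CPM in WT and 423 and 426 CPM in Mek1/2-tKO. The adjusted p lay between 0.00304 and 0.0303 for 5 of them and was 0.0741 for Hars, so that 17 of the 19 passed the adjusted p alone in the downward direction, against 27.2% of all tested genes (27.8% passed it upwards). Under at least 1 alternative the 5 lost this, with a largest adjusted p of 0.101 for Qars, 0.193 for Farsb, 0.195 for Kars, 0.25 for Farsa and 0.307 for Rars. Hars shares 9.81% of its exon bases with Hars2 on the other strand and Farsb 9.47% with Sgpp2.

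Wars (ENSMUSG00000021266.16, chr12:108860030-108894174), the synthetase for tryptophan, was the only one of the 35 genes called higher. It had 163 and 179 CPM in WT and 269 and 304 CPM in Mek1/2-tKO. Both Mek1/2-tKO libraries were well above both WT libraries, and the log2 fold change was 0.75 (SE 0.08, adjusted p = 6.22e-06). Among the synthetases it stood at place 12 by TPM in WT, within its spread of Dars, and at place 4 in Mek1/2-tKO, within its spread of Gars. Wars is known as a gene that IFN-γ induces, and a list of 15 IFN-γ response genes was therefore read beside it. Of these 15, 9 were called higher, 1 lower and 5 not called, with a median log2 fold change of 0.88, against 19.3% higher and 16.4% lower among all tested genes. Socs1, a brake on cytokine signalling, rose by 1.34, and the GTPase genes Irgm1, Gbp3 and Gbp4 by 1.19, 1.15 and 1.12 on the log2 scale. The lower one was Ido1, an enzyme that degrades tryptophan (log2 fold change -1.40, SE 0.40), which was picked out after its value was seen and lost its call without WT replicate 2. Ifng itself had 127 and 121 CPM in WT and 2054 and 1773 CPM in Mek1/2-tKO (log2 fold change 3.95, SE 0.10, adjusted p = 1.8e-12), in cultures that held an antibody blocking IFN-γ. The NK-cell, γδ T-cell and CD8 markers given above moved with it, and their part in it was not tested.

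Some synthetases sit together in the multisynthetase complex and others work alone. Of the 7 genes here that belong to the complex (Eprs, Iars, Lars, Qars, Rars, Kars and Dars), 4 fell and 3 were not called, with a median of -0.62 on the log2 scale. Of the 12 outside it, 8 fell, 1 rose and 3 were not called, with a median of -0.72. Among all tested genes 16.4% were called lower and 19.3% higher. Mars, the synthetase for methionine and a further member of the complex, had 293 and 297 CPM in WT and 174 and 174 CPM in Mek1/2-tKO and fell (log2 fold change -0.76, SE 0.07, adjusted p = 1.31e-06). The scaffold genes of the complex were picked out after their values were seen. Aimp2 had a log2 fold change of -0.02 (adjusted p = 0.902), with overlapping genotypes, while Aimp1 and Eef1e1 had log2 fold changes of 0.41 and 0.48 that passed the adjusted p (0.0018 and 0.00137) but not the fold, except for Eef1e1 without Mek1/2-tKO replicate 2 (0.63). Tarsl2, a second threonine synthetase, fell by 1.17 on the log2 scale. The synthetases that work in mitochondria are encoded by separate genes, and 4 of the 17 tested fell (among them Vars2 -0.76, Iars2 -0.75 and Nars2 -0.62), 13 were not called and the median was -0.27, where 16.4% of all tested genes were called lower. Without Mek1/2-tKO replicate 2, 2 of the 4 kept the call.

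The motif was in the windows of 5 of the 12 synthetases matched, all 5 called lower, and the windows are printed to show the letters they share. In Aars a match begins at base 10 from the RefSeq start (chr8:111033840-111033869, plus strand). In Gars it lies 30 bases before the start (chr6:55037960-55037989, plus strand), in Iars at base 8 (chr13:49682126-49682155, plus strand), in Tars 15 bases before (chr15:11399655-11399684, minus strand) and in Yars at base 4 (chr4:129189895-129189924, plus strand). Of the 14 mitochondrial synthetases with a window 0 held it, where 2.85% of the tested symbols with a window did.
Aars: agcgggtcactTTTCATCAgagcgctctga
Gars: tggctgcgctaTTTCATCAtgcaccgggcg
Iars: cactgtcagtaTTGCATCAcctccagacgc
Tars: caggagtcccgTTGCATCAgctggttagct
Yars: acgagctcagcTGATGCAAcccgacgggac

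Other genes of the same pathway were read from lists. Among 22 tested genes that are known as further ATF4 targets or partners, 14 fell, 0 rose and 8 were not called by edgeR's test, with a median log2 fold change of -0.81, against 16.4% lower and 19.3% higher among all tested genes. Gpt2, the mitochondrial alanine aminotransferase, had 31.1 and 38.7 CPM in WT and 10.9 and 7.99 CPM in Mek1/2-tKO (log2 fold change -1.90, SE 0.18). Pycr1, which makes proline, changed by -1.85, the stress factor Atf3 by -1.73 and Ddit4, an inhibitor of mTORC1, by -1.51 on the log2 scale, with adjusted p values of at most 6.34e-06 for these 4 genes. In the serine and glycine pathway, whose 4 genes were singled out after their values were seen, Psat1 (-0.90), Psph (-0.84) and Shmt2 (-0.94) fell, and Phgdh, the first enzyme, had a log2 fold change of -0.36 that did not reach the fold threshold. The full list has 24 genes, of which 2 had too few counts to be tested. The motif was in the windows of 7 of its 21 genes with a window. It was in 2.85% of the tested symbols with a window and in 4.51% of all symbols with one. The 7 include genes that were called lower, not called and not tested.

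Upstream of ATF4, a list of the kinases of eIF2, their regulators, the eIF2 subunits, the exchange factor eIF2B and the subunits that direct the eIF2 phosphatase had 4 of 16 genes lower, 1 higher and 11 not called, near the 16.4% lower of all tested genes and below the 19.3% higher, and a median of -0.21. Eif2ak4, the kinase GCN2 that senses uncharged tRNA, had 37.4 and 37.6 CPM in WT and 13.9 and 19.6 CPM in Mek1/2-tKO and fell (log2 fold change -1.16, SE 0.16, adjusted p = 2.97e-05). Its activator Gcn1 fell too (-1.03, SE 0.10), as did Ppp1r15b (-0.75), a subunit that directs the phosphatase of eIF2. Eif2ak2, the kinase PKR that senses double-stranded RNA, fell by 0.66, although without WT replicate 1 its log2 fold change of -0.58 was not called. Eif2ak3, the kinase PERK of the endoplasmic reticulum, rose by 0.66, but with library size alone as the scaling its 0.57 was not called. Eif2ak1, the fourth kinase, and Ppp1r15a, the stress-induced partner of the phosphatase, were named after their values were seen, and both missed the fold threshold (-0.26 and -0.30).

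Of 26 further amino acid transporters, 15 had enough counts to be tested, and 4 fell, 1 rose and 10 were not called (median -0.21), against 16.4% lower and 19.3% higher among all tested genes. Those that fell were Slc7a3 (-1.81), a cationic amino acid carrier like Slc7a1, Slc36a4 (-1.62), Slc16a10 (-1.51), which carries aromatic amino acids, and the taurine carrier Slc6a6 (-1.10). The 1 that rose, Slc7a7, picked out after its value was seen, had 1.69 and 1.25 CPM in WT and 3.29 and 3.25 CPM in Mek1/2-tKO and lost its call with DESeq2 and without 3 of the 4 libraries.

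**Figure D4:**
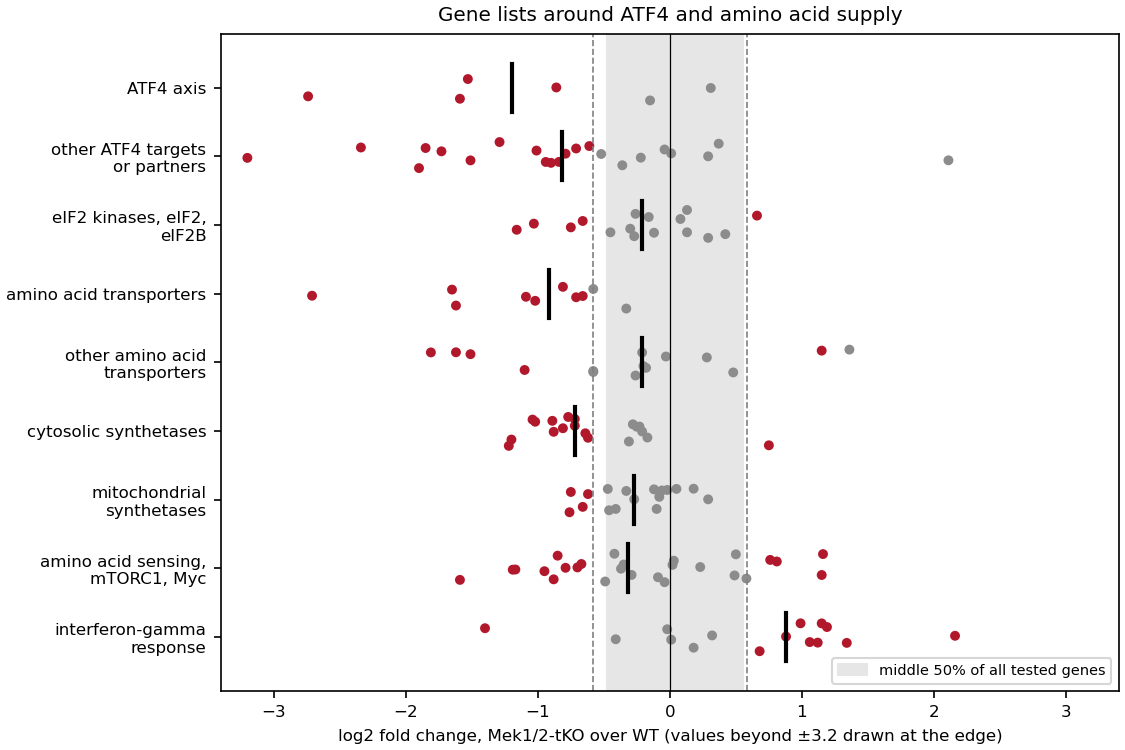
Log2 fold change of Mek1/2-tKO over WT for each tested gene of the 3 groups of the 35 and of 6 related lists, with red points for called genes, grey points for the others, a black bar for the median and a grey band for the middle 50% of all tested genes. The medians of the ATF4 axis (-1.20), the transporters (-0.91), the further ATF4 targets (-0.81) and the synthetases (-0.72) lie to the left of the band, and that of the IFN-γ response genes (0.88) to its right.

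Changes between the genotypes also followed the length of the genes. Across the 14330 tested genes, which are not independent replicates, the log2 fold change and the exon length had a Spearman rho of -0.39, and GC content had one of 0.02. The exons of the 35 genes had a median length of 4.36 kb, against 3.66 kb for all tested genes. When the trends on length and GC content were taken out of the log2 fold changes, the median of the 35 was -0.54 and 15 were still past both thresholds downwards, all of them among the 24, and Wars was still higher. The 15 were 4 of the 4 ATF4 axis genes called lower, 5 of the 8 transporters and 6 of the 12 synthetases. The values were -2.92 for Trib3, -1.82 for Chac1, -1.48 for Sesn2, -1.22 for Slc7a1 and -1.02 for Slc7a5. The falls of 8 called genes shrank by over 1.5 times. Among these were Eprs (-1.22 to -0.73), Aars (-1.04 to -0.61) and Slc7a11 (-1.02 to -0.62), which kept the call. The other 5 lost it, with values of -0.28 for Slc38a1, -0.56 for Cars, -0.50 for Vars, -0.46 for Yars and -0.39 for Tars. In all, the 9 genes no longer past the fold threshold were Slc1a5, Slc7a6, Slc38a1, Cars, Dars, Sars, Tars, Vars and Yars. The mitochondrial share of the counts was 1.62% and 1.555% in WT and 2.24% and 1.99% in Mek1/2-tKO. For single genes outside the 35, and for the related lists, all values are given with these trends left in. The part of transcript length or RNA quality in these changes was not tested.

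**Figure D5:**
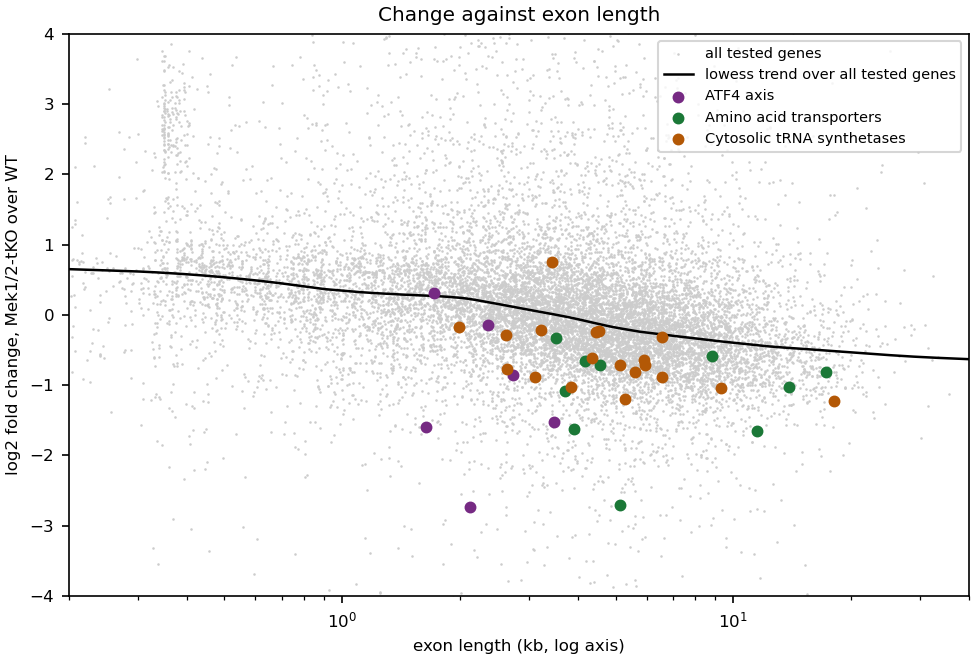
Log2 fold change of Mek1/2-tKO over WT (values beyond 4 in either direction not shown) against exon length in kb (log axis) for all tested genes (grey points) and for the 35 genes (coloured by group), with the lowess trend over all tested genes as a line. The line falls with length, and Wars at 0.75 stands well above it while Trib3 at -2.74 and Slc6a9 at -2.71 stand farthest below.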

How the data were processed

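RNA-seq libraries, 2 of WT and 2 of Mek1/2-tKO cells, were analysed. The authors trimmed reads with Trimmomatic (v0.36), mapped them to GRCm38 with software the methods call STRA, counted uniquely mapped reads per gene with featureCounts (Subread 1.5.1) and deposited the raw counts. The annotation release and the strand setting are not given in the sources used here. Symbols were matched to 54723 of 54752 identifiers. Genes were filtered (filterByExpr), scaled (TMM) and tested with edgeR 4.0.16 (robust quasi-likelihood fit, Benjamini-Hochberg adjustment) in R 4.3.3. The biological coefficient of variation was 0.0918. Replicates differed by more than the sampling noise of separate counts (chi-square per gene 4.19 in WT and 10.9 in Mek1/2-tKO). Where no read was counted, up to 3 counts (0.159 to 0.184 CPM in these libraries) are possible from counting error alone, if each count is a separate fragment. Whether both reads of a pair were counted is not given in the sources used here, and the bound would then be higher. In a test on counts simulated for this comparison over 14084 genes, 86.7% of genes with a log2 fold change of 1 and 97% of those with 2 were recovered, and 2 of 13887 unchanged genes were called. The simulation gave every gene in both genotypes the same dispersion (0.00842), changed only 98 and 99 genes and had no length trend. The data differ in each of these, so the shares are not error rates of the calls reported here.

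The 35 genes and all lists were chosen with earlier results of these data known. The rule for names took all 35 genes, Map2k1, Map2k2, Mars, Myc and Ifng. It took up to 4 called genes in each direction of each related list whose average log2 CPM was 3 or more. It also took the most abundant marker and markers without counts. Cd8b1, Jchain and the partners in exon overlap were named besides, and other names are marked where they appear. A few items that are part of the counts are not reported here. Each result was recomputed with DESeq2 1.42.0 or a likelihood-ratio test in place of the main test, with size factors from DESeq2 or library size alone as scaling, with no filter or a minimum of 10 counts per library, with the replicate number as a block, with other thresholds and without each library in turn; removal of lowess trends (span 0.3) on length and GC content was added after seeing the data.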

Additional observations from a re-analysis of the deposited data

How the results depend on the processing

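Of the 25 called genes among the 35, 24 kept the call and its direction in all 7 alternatives with all libraries and in all 4 fits without 1 library; the exception was Slc7a11. None of the 35 changed sign, while Aimp2, near 0, was at 0.00 with at least 10 counts in every library and at 0.04 without WT replicate 2. At a log2 fold change of at least 1, 12 of the 35 were called lower and 0 higher, and among all tested genes 1040 were lower and 1725 higher; with no fold threshold 3903 of all tested genes were lower. Leaving out 1 library gave 1 to 2 of the 35 called higher, the second being Ddit3 without WT replicate 1. The median log2 fold change of the 35 was -0.85 with library size alone, a scaling that moved the median of all genes by -0.08. With the trends on length and GC content taken out, chosen after seeing the data, the median was -0.54 and 15 were lower, and 1588 of all tested genes were lower and 2409 higher.

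Both genotypes use replicate numbers 1 and 2 in the labels, and the sources do not say what libraries with the same number share. Across genes, the deviations of libraries with the same number correlated at -0.0242. Whether they share a donor or a preparation cannot be told from this value. With the replicate block, 24 of the 35 were called lower and 1 higher, as without it, and among all tested genes 2300 were lower and 2652 higher.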

Other observations

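A list of 26 genes of amino acid sensing and mTORC1, with Myc, had 9 called lower, 4 higher and 13 not called by edgeR's quasi-likelihood test (median log2 fold change -0.32), against 16.4% lower and 19.3% higher among all tested genes. Myc, a transcription factor of cell growth that T-cell activation induces, had 264 and 289 CPM in WT and 112 and 130 CPM in Mek1/2-tKO (log2 fold change -1.19, SE 0.09, adjusted p = 1.31e-07). The kinase gene Mtor fell by 0.88 and Rptor, its partner in mTORC1, by 0.95 on the log2 scale. Castor1, the arginine sensor, fell from 16.5 and 13.0 CPM to 4.91 and 4.85 CPM (log2 fold change -1.59, SE 0.21).

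In the other direction, Sesn1 rose by 1.16 (SE 0.12), with 20.2 and 21.5 CPM in WT and 47.3 and 45.6 CPM in Mek1/2-tKO. Its relatives Sesn2 and Sesn3 fell, the latter, named after its value was seen, from 82.1 and 81.0 CPM in WT libraries to 43.5 and 50.5 in those labelled Mek1/2-tKO, at a log2 fold change of -0.79 (SE 0.10, adjusted p = 2.44e-05). The lysosomal anchor genes Lamtor4 and Lamtor2 rose by 1.15 and 0.81, and Nprl2, part of a brake on mTORC1, by 0.76 on the log2 scale. Without Mek1/2-tKO replicate 2 the value of Nprl2 was 0.48, short of the fold threshold. The trend on exon length was left in these values. Lamtor4, Lamtor2 and Nprl2 have 1302, 1218 and 2013 exon bases, and Mtor, Rptor and Sesn3, which fell, have 10109, 13471 and 15269. Castor1, which fell too, has 1574. The part of length in this list was not tested.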
